A study of Mus musculus with 188 samples.

Results

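The genes of Toll-like receptor and endotoxin signalling were followed across the aortas of a mouse strain panel. The 10 genes, chosen by name, were Tlr4, Tlr2, Tlr3, Tlr7, Ly96, Cd14, Lbp, Myd88, Irak1 and Nfkbia. Every probe set annotated to 1 of these symbols was taken, which gave 14 of the 22327 probe sets tested and 10 of the 11725 genes that carried a symbol. Expression arrays of whole aorta were made from untreated male mice of 16 weeks on chow, in 94 strains of a panel known as the Hybrid Mouse Diversity Panel. Of these strains, 28 were inbred strains outside the recombinant sets (55 arrays). The others were 28 AXB and BXA strains (59 arrays, descended from A/J and C57BL/6J), 28 BXD strains (53 arrays, from DBA/2J and C57BL/6J) and 10 BXH strains (21 arrays, from C3H/HeJ and C57BL/6J). All the arrays carry the genotype label wild-type, also those of BXD29-Tlr4<lps-2J>/J, whose strain name records a Tlr4 allele. C3H/HeJ is known to carry a point mutation in Tlr4. The Tlr4 lesions themselves are not described in the sources used here. BXD29-Tlr4<lps-2J>/J, C3H/HeJ and DBA/2J had 2 arrays each, and C57BL/6J had 3. The labels do not state whether a strain's arrays hold separate mice, so the spread between a strain's arrays, on which tests of the strain effect and of arrays rest, may be technical. Comparisons of 1 strain with the other strains of its panel, of panels and across strain means rest on the spread between strain means. Those of BXD29-Tlr4<lps-2J>/J with DBA/2J and C57BL/6J, and of C3H/HeJ with C57BL/6J, rest on the spread between arrays.

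Toll-like receptors are innate immune receptors that recognise microbial molecules. Bacterial endotoxin is picked up in plasma by Lbp (lipopolysaccharide binding protein), passed to Cd14 and loaded onto Ly96 (MD-2), the partner of Tlr4. Tlr2 recognises bacterial lipoproteins, and Tlr3 and Tlr7 recognise RNA inside endosomes. Of these receptors, all but Tlr3 signal through the adaptor Myd88 and the kinase Irak1 to NF-kB. Nfkbia encodes the inhibitor that holds NF-kB in the cytoplasm and is itself an NF-kB target. In the vessel wall these genes are studied in macrophages, endothelium and smooth muscle.

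RefSeq promoter sequences (build GRCm38.p6) were matched to the members by symbol, and 5 of the 10 genes had an entry: Tlr2, Tlr3, Myd88, Irak1 and Nfkbia. The 250 bases before the gene start were searched for an NF-kB-like motif on both strands, spelled as 3 G, any 3 bases, 2 T and 2 C. Of all 32851 promoter windows of this length, 4.65% held it, and among the members it was found once each in Tlr2, Tlr3 and Nfkbia. The windows shown are those of Nfkbia, the NF-kB target that varied most between strains among the genes in that table, of Tlr2, a receptor with a match, and of Myd88, the adaptor, without one. They are written 5′ to 3′ along the gene, with the motif in capitals. Nfkbia lies at chr12:55492648-55492897, Tlr2 at chr3:83841609-83841858 and Myd88 at chr9:119340019-119340268, all on the minus strand. 
Nfkbia: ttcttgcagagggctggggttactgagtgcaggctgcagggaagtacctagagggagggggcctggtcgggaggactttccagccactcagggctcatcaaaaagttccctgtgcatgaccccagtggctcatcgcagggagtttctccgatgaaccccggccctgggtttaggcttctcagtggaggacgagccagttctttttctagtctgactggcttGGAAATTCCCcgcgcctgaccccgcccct
Tlr2: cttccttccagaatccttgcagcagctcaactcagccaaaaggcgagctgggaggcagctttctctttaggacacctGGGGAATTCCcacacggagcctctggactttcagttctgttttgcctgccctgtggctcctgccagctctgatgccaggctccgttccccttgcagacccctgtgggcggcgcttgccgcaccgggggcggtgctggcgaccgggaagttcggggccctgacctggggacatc
Myd88: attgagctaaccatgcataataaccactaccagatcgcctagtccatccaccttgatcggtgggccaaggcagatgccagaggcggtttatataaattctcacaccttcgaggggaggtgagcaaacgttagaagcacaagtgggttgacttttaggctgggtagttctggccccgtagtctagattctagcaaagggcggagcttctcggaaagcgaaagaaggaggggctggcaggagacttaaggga
The Nfkbia match, GGAAATTCCC, lies on the opposite strand and starts at position -29 from the gene start. The Tlr2 match, GGGGAATTCC, starts at position -173 on the gene's own strand. The Myd88 window held no match, which says only that these letters are not in it.

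Values are log2 levels as deposited, so a difference of 1 is a doubling. Array medians lay between 4.55 and 4.88. Markers of smooth muscle, endothelium and fibroblasts, the cells of the vessel wall, were well measured, with 1 of the 25 measured markers (Pi16) near background. RNA of neighbouring tissue was present as well: 67 arrays lay above 1 on a score of thymocyte or of squamous epithelium genes, a score being the mean of the listed genes' centred log2 levels. The array numbers in the titles fall into a lower block (up to 1038, 92 arrays) and an upper block (from 1067, 96 arrays), and 5 strains had arrays in both. What separates the blocks is not stated. In whole tissue, fewer cells of a type and less RNA per cell cannot be told apart. Both BXD32/TyJ arrays, whose descriptions carry an unexplained suffix, were left out, which left 93 strains. A probe set was called near background when its mean was under 4.06, the 95th percentile of 70 probe sets for olfactory, vomeronasal and taste receptors. Tlr3, Ly96 and all 3 Tlr7 probe sets were near background, so their differences are compressed.

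The first question was how far these genes differ between strains. The strongest strain differences were in Lbp, Nfkbia and Tlr4. Of the 14 probe sets, 11 passed limma's F test over the 84 replicated strains (Benjamini-Hochberg adjusted p under 0.05), covering 9 of the 10 genes by their strongest probe set. Of all 22327 probe sets, 46.5% passed, against 78.6% of the members. The 3 that did not pass were Tlr2 (adjusted p = 0.0791, limma) and the weaker Tlr7 probe sets. The intraclass correlation, which gives how much of the variance is due to strain, had a median of 0.346 over the members, of 0.182 over all probe sets and of 0.253 over the probe sets above the median level. It was 0.587 for Lbp (95% interval 0.436 to 0.708), 0.534 for Nfkbia (0.372 to 0.667) and 0.451 for the stronger Tlr4 probe set (0.275 to 0.601). For Tlr7 it was 0.238 in the strongest probe set and below 0 in the other two. With the 67 thymocyte- or squamous-rich arrays left out, 7 of the 14 probe sets passed, and 35.6% of all probe sets. Those lost among the members were Tlr3, Tlr7, Ly96 and the weaker Irak1 probe set.

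**Figure D1:**
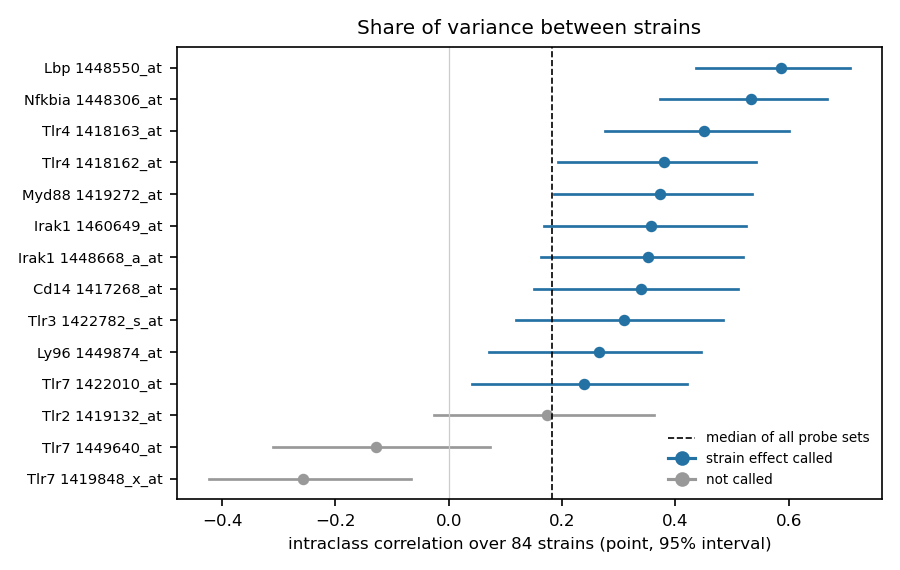
Intraclass correlation (horizontal axis, no unit) of each of the 14 probe sets over 84 strains, with 95% intervals as bars; blue marks a called strain effect and the dashed line the median of all probe sets, 0.182. Lbp is highest at 0.587, and both weaker Tlr7 probe sets lie below 0.

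Tlr4, the endotoxin receptor, was lowest in BXD29-Tlr4<lps-2J>/J of all 93 strains. Its stronger probe set, 1418163_at, read 3.61 and 3.65 on the BXD29 arrays, a level under the background limit of 4.06. The 49 arrays of the other BXD strains read from 4.31 to 5.86 with a median of 4.86, so the groups did not overlap, and 0 of the 184 arrays of all other strains reached down to the BXD29 values. The next lowest strains were BXA1/PgnJ at 4.15 (1 array) and BXA16/PgnJ at 4.22 ± 0.19 (SD, n = 3). At the top stood BUB/BnJ at 5.87 (1 array), BXD8/TyJ at 5.76 ± 0.14 (SD, n = 2) and BXD18/TyJ at 5.61 (1 array). AKR/J and NOD/ShiLtJ both followed at 5.56. The SD between arrays within strains was 0.29, more than any gap between neighbours among these 5 strains.

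Set against the 26 other BXD strain means, Tlr4 in BXD29 was lower by a log2 difference of -1.25 ± 0.32 (SE, 3.63 against 4.88). Since BXD29 read under the background limit, the fold is a bound, at least 1.76-fold when the other strains are set against that limit of 4.06. The exact permutation of the strain label over the 27 means gave p = 0.037, two-sided, which is the smallest this design allows. In limma's test on strain means across all probe sets the adjusted p was 0.834, with Tlr4 at rank 13 of 22327 by p. With the spread between arrays in place of that between strains, the difference was the same with an SE of 0.21 and the adjusted p (limma) was 0.000154. Over this comparison 0.0179% of all probe sets were called (4, all higher in BXD29) and 0 of the 14 members, of which 3 had an unadjusted p below 0.05, as had 3.0% of all probe sets. All 4 called probe sets were outside the members. Over the alternatives tried, the Tlr4 difference lay between -1.46 and -1.18.

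Against the mean of the parents DBA/2J and C57BL/6J, Tlr4 in BXD29 was at least 2.12-fold lower by the same bound. The measured log2 difference was -1.53 ± 0.24 (SE, 3.63 against 5.15), with an adjusted p of 8e-05 in limma's fit of all strains. That fit rests on the spread between arrays, not on that between strain means. DBA/2J read 5.46 and 5.34 and C57BL/6J read 4.92, 4.40 and 5.42, so all 5 parental arrays lay above both BXD29 arrays. This comparison called 0.0806% of all probe sets and 1 of the 14 members, Tlr4. Both BXD29 arrays are in the upper array-number block, as is 1 of the 5 parental arrays, and with the block as a covariate the difference was -1.54 ± 0.27 (SE, adjusted p = 0.00142, limma). The macrophage score was -0.19 and -0.31 on the BXD29 arrays against -0.89 to 1.53 on other BXD arrays, and with it as a covariate the difference was -1.55 (adjusted p = 6.55e-05, limma). The skeletal muscle score was -3.36 and -3.39, near the low end of the other BXD arrays (-3.90 to 4.40), and with the tissue scores as covariates the difference was -1.53 (adjusted p = 5.01e-05, limma).

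The weaker Tlr4 probe set, 1418162_at, read 3.53 and 3.49 in BXD29, and 2 of the 49 other BXD arrays were at or below 3.53. Its difference from the other BXD strain means was -0.53 ± 0.22 (SE, adjusted p = 0.996, limma), and BXD29 was again the lowest of the 27. Across all strains, however, RIIIS/J (3.24), BXA8/PgnJ (3.42) and BXA16/PgnJ (3.51) were as low or lower for it. On this probe set the other BXD strain means averaged 4.04, themselves under the background limit of 4.06. Over all arrays its mean was 4.10, just above that limit. Differences at such levels are compressed, so how far BXD29 stands apart cannot be compared between the probe sets. Where each lies in the transcript relative to the allele is not given in the sources used here.

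**Figure D2:**
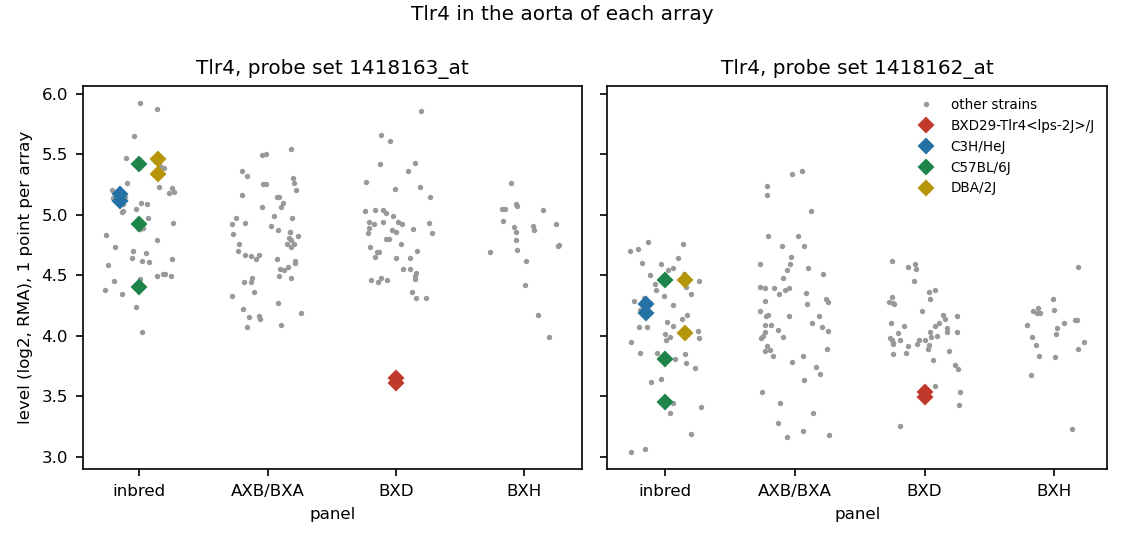
Tlr4 level (vertical axis, log2) on every array of 93 strains, by panel, for both probe sets; grey points are arrays of other strains and diamonds the named strains. For 1418163_at the BXD29-Tlr4<lps-2J>/J arrays, at 3.61 and 3.65, lie below all others, and those of C3H/HeJ, at 5.17 and 5.11, lie among them.

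The other members in BXD29 stood mostly within the range of the BXD strains. Irak1, the kinase recruited by Myd88, read 8.68 and 8.47 on its stronger probe set and 7.91 and 7.86 on the other, the highest of 27 BXD strain means on both (differences 0.37 ± 0.18 and 0.33 ± 0.18, SE). BXD29 was the highest for 3.57% of all probe sets. On each Irak1 probe set, 5 of the 49 other BXD arrays were at or above the lower BXD29 array. Nfkbia read 9.31 and 10.27, which is 0.94 ± 0.47 (SE) above the others. Tlr2 (4.17 and 3.78) and the stronger Tlr7 probe set (3.26 and 3.71) were the lowest of the 27, by 0.36 ± 0.24 and 0.34 ± 0.20 (SE). None of these passed in limma (adjusted p = 0.996 for each). How many of all probe sets were lowest in BXD29 was not counted. Cd14 read 6.55 on one array and 5.12 on the other, a gap that spans most of the range of BXD strain means, 5.15 to 7.47, so no direction can be read from it. The remaining differences lay between -0.39 (Ly96) and 0.36 (Myd88).

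C3H/HeJ had Tlr4 levels inside the range of the other inbred strains. Its arrays read 5.17 and 5.11 on the stronger probe set, among the 53 arrays of the other inbred strains, which read 4.03 to 5.92 with a median of 4.95. The strain mean ranked 7 of 28, 0.18 ± 0.36 (SE) above the others (adjusted p = 1, limma; exact permutation p = 0.571, two-sided). The weaker probe set differed by 0.10 ± 0.39 (SE). The comparison called 0.0269% of all probe sets (6) and 0 of the 14 members, 0 of which had an unadjusted p below 0.05 in limma, as had 1.2% of all probe sets. The lowest other inbred strain for the stronger probe set was RIIIS/J at 4.41. A p that misses the threshold does not show equal levels.

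Against C57BL/6J alone, C3H/HeJ had lower Nfkbia and Myd88 values. Nfkbia read 8.30 and 8.55 in C3H/HeJ against 9.41, 9.93 and 9.60 in C57BL/6J, without overlap, a 2.34-fold difference (log2 -1.23 ± 0.35, SE). Its adjusted p was 0.0526 (limma), just above the threshold. Myd88 read 6.5 and 6.51 against 7.19, 7.88 and 6.91 (log2 difference -0.82 ± 0.28, SE, adjusted p = 0.152, limma). Tlr4 differed by 0.23 ± 0.26 (SE), and by -0.03 without C57BL/6J replicate 2, which read 4.40. Here 1.25% of all probe sets were called and 0 of the 14 members, with 3 members and 13.0% of all probe sets at an unadjusted p below 0.05 in limma. The count over all probe sets, 278, was 1123 without C57BL/6J replicate 3 and 73 without C3H/HeJ replicate 2. Without C57BL/6J replicate 3, the only array of this pair in the upper block, Nfkbia differed by -1.25 (adjusted p = 0.0391, limma) and Myd88 by -1.03 (adjusted p = 0.034). With the block as a covariate the Nfkbia difference was -1.11 (adjusted p = 0.101), and with the macrophage score, which was 0.78 and 0.84 on the C3H/HeJ arrays, it was -1.56 (adjusted p = 0.00287). Leaving out C57BL/6J replicate 2, the array highest in Myd88, gave -0.55 for Myd88 (adjusted p = 0.921). This comparison and the parental one of BXD29 share the C57BL/6J arrays.

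**Figure D3:**
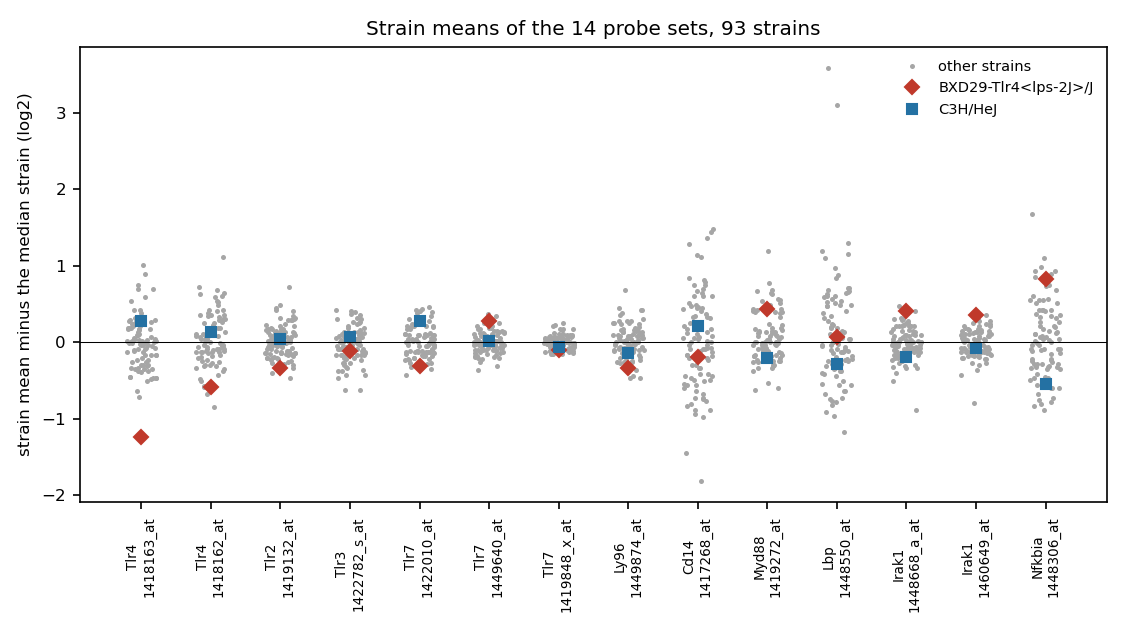
Strain means of the 14 probe sets, each minus its median over 93 strains (vertical axis, log2); red diamonds are BXD29-Tlr4<lps-2J>/J, blue squares C3H/HeJ and grey points other strains. BXD29 lies below all other strains for Tlr4 1418163_at, and KK/HlJ and SJL/J are the grey points high above the rest for Lbp.

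Tlr2, the lipoprotein receptor, varied little. Its strain means ran from 3.83 (AXB1/PgnJ) to 5.03 (BXD2/TyJ), and the BXD2/TyJ arrays themselves read 5.52 and 4.53. Just under it stood AXB2/PgnJ (4.35 and 5.24) and BXD22/TyJ (4.87 and 4.62), which overlap with it. The strain effect did not pass (above), and the SD within strains, 0.25, exceeded that among strains, 0.12. Over all arrays its r with the difference between the 3′ and 5′ beta-actin control probe sets, a sign of RNA quality, was -0.521, the largest in size among the members. With that difference as a covariate, its strain effect had an adjusted p of 0.0051 (limma).

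Tlr3, the receptor for double-stranded RNA, ran from 3.22 in C57L/J and BXD39/TyJ to 4.27 in I/LnJ, all close to background. Its strain effect passed (adjusted p = 0.00448, limma), and its r with the beta-actin difference was 0.439 over all arrays. Tlr7, the receptor for single-stranded RNA, ran from 3.36 in BXA12/PgnJ to 4.25 in BXD2/TyJ on its stronger probe set (adjusted p = 0.0256, limma). The call was lost when arrays were centred on their medians (adjusted p = 0.176) and with the macrophage score as a covariate (adjusted p = 0.109). Its weaker probe sets ranged over 0.72 and 0.40 across strains and did not follow it.

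Ly96, the Tlr4 partner, was near background, with strain means from 3.48 in BXD15/TyJ to 4.64 in BXD38/TyJ. The BXD38/TyJ arrays read 4.89 and 4.38, those of BXD20/TyJ 4.38 and 4.41, and those of BXD15/TyJ 3.46 and 3.50. Its strain effect passed (adjusted p = 0.0128, limma), and was lost without those 67 arrays (adjusted p = 0.18).

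Cd14, the endotoxin co-receptor of myeloid cells, had the widest spread among strains after Lbp in range. Strain means ran from 4.22 in BXA1/PgnJ (1 array) to 7.51 in BTBR T<+> tf/J, with BXA11/PgnJ second lowest at 4.59. The upper end held BTBR T<+> tf/J (7.92 and 7.09), BXD22/TyJ (7.24 and 7.69), DBA/2J (7.47 and 7.32) and BXD2/TyJ (7.77 and 6.88), whose arrays overlap with one another. The strain effect passed (adjusted p = 0.00117, limma), although the SD within strains, 0.59, was larger than that among strains, 0.42. The single BXA1/PgnJ array had a thymocyte score of 2.44. DBA/2J stood above C57BL/6J, which read 6.29, 6.65 and 6.19, without overlap, a difference that was not tested. In BXD, the cross of those parents, Cd14 differed between strains (adjusted p = 0.0285, limma). That call was lost with the macrophage score as a covariate (adjusted p = 0.0585), with the beta-actin difference as one (0.0712) and with the thymocyte- or squamous-rich arrays left out (0.16).

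Lbp, which carries endotoxin in plasma and is made chiefly by the liver, was far higher in KK/HlJ and SJL/J than elsewhere. The KK/HlJ arrays read 9.66 and 9.66 and the SJL/J arrays 9.57 and 8.77. The highest of the 182 arrays of the other strains read 7.87, and the median strain mean was 6.07, which puts KK/HlJ 12-fold above the median strain. The next strains were AXB1/PgnJ at 7.37 ± 0.24 and BTBR T<+> tf/J at 7.26 ± 0.32 (SD, n = 2 each), and the lowest were BXH20/KccJ at 4.90 ± 0.14 and BXH9/TyJ at 5.11 ± 0.31 (SD, n = 2 each). The strain effect had an adjusted p of 2.27e-09 (limma). Without KK/HlJ and SJL/J it was 0.000825, and within the inbred strains it rose from 5.96e-05 to 0.133, so the call among inbred strains rests on KK/HlJ and SJL/J.

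Genes of other organs moved with Lbp in these strains. Among the genes most correlated with it were Miox, Amn and Dnase1, which are expressed in kidney tubules and were at background elsewhere: Miox was 6.10 in KK/HlJ and 5.87 in SJL/J against at most 3.55 in the other strains. A list of 12 kidney tubule genes, made after this was seen, had 11 measured members, 8 of them above all other strains in both. The kidney genes came from replicate 1 of each strain, however. The kidney score was 2.57 on KK/HlJ replicate 1 and 2.27 on SJL/J replicate 1, but 0.20 and -0.26 on replicate 2, near the other arrays, which span -0.25 to 0.44. Lbp was 9.66 and 8.77 on those second arrays, still above all other strains. The hepatocyte score was likewise 3.08 and 3.02 on the first arrays and 0.89 and -0.09 on the second, while other inbred arrays reached 4.24 with a median of 0.10. SJL/J replicate 2 had a thymocyte score of 3.46 and KK/HlJ replicate 2 one of -0.71.

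**Figure D4:**
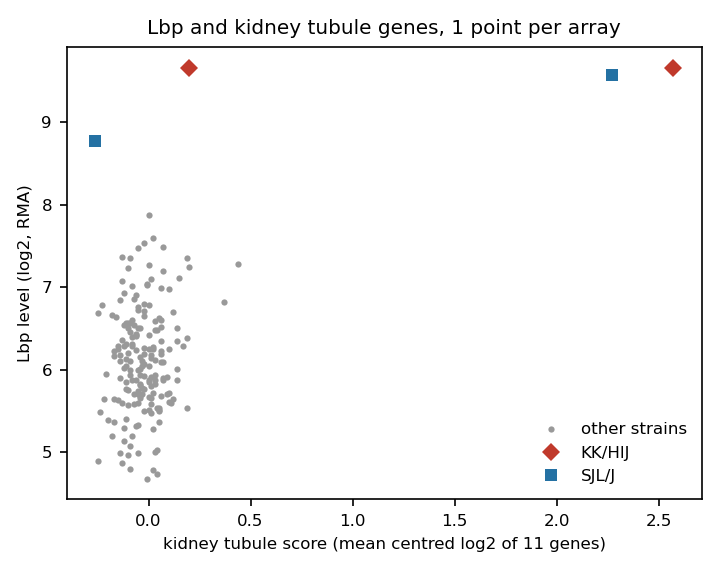
Lbp level (vertical axis, log2) against the kidney tubule score (horizontal axis, mean centred log2 level of 11 genes), 1 point per array of 93 strains. Replicate 1 of KK/HlJ and SJL/J scores above 2 and replicate 2 lies near 0, while all 4 arrays have Lbp of 8.77 or more, above the 7.87 of the next array.

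Myd88, the shared adaptor, was highest in BTBR T<+> tf/J, where both arrays agreed at 7.89 and 7.91, and lowest in RIIIS/J at 6.15 and 6.02. In the strains ranked just under BTBR T<+> tf/J the arrays stood far apart. BXA8/PgnJ read 6.88 and 8.06, AXB6/PgnJ 6.81 and 7.95, BXH2/TyJ 7.96 and 6.78, AXB23/PgnJ 6.76 and 7.93 and C57L/J 7.90 and 6.64. The median gap between the arrays of a strain was 0.20 over 78 strains with 2 arrays, and the largest was 1.26, in C57L/J. The strain effect passed (adjusted p = 0.000481, limma), and its r with the beta-actin difference was -0.313 over all arrays. The RIIIS/J arrays had thymocyte scores of 4.29 and 4.5 and endothelial scores of -1.31 and -1.47, and their part in the low Myd88 and Irak1 values was not tested.

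Irak1 was lowest in RIIIS/J on both probe sets, at 7.44 and 7.15 on the stronger and 6.63 and 6.83 on the other, next to NOD/ShiLtJ (7.42 and 7.91) and C57L/J (6.88 and 7.33) respectively. The highest strain means were 8.64 in AXB6/PgnJ for the stronger probe set and 7.88 in BXD29-Tlr4<lps-2J>/J for the other. Both probe sets passed (adjusted p = 0.00136 and 0.00128, limma). Their ranges over strains, 1.34 and 1.16, were with that of Tlr2 (1.20) the narrowest of the members above background.

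Nfkbia, the NF-kB inhibitor, was highest in C58/J, whose arrays read 10.58 and 10.71, above those of the strains ranked next. RIIIS/J (9.98 and 10.14) and AXB1/PgnJ (9.90 and 9.97) followed. Strains ranked below them overlapped with them, such as C57L/J (10.39 and 9.23) and BXD29-Tlr4<lps-2J>/J (9.31 and 10.27), so the order under C58/J is not resolved. Nfkbia was lowest in CBA/J (8.16 and 8.0) and BXH7/TyJ (8.13 and 8.13). The strain effect had an adjusted p of 1.24e-07 (limma). The SD among strains, 0.41, was about as large as that within strains, 0.39, and in the other members, Lbp excepted, the spread within strains was the larger.

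The panels were compared next, since each recombinant set carries the alleles of 1 pair of parents. Averages over panels were close for most members, and 0 of the 14 probe sets passed limma's F test on strain means, against 3.12% of all probe sets. Lbp came nearest (adjusted p = 0.055, limma), with means of 6.56 ± 0.94 in inbred, 6.21 ± 0.45 in BXD, 5.92 ± 0.53 in AXB/BXA and 5.84 ± 0.58 in BXH strains (SD over 28, 27, 28 and 10 strains). Cd14 followed, at 6.26 ± 0.60 in inbred and 5.58 ± 0.41 in BXH strains (adjusted p = 0.147). At an unadjusted p below 0.05 there were 2 member probe sets, these same ones, and 15% of all probe sets.

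Within panels, members were called among BXD and among inbred strains. Among BXD strains 4 of the 14 probe sets passed limma's F test, against 15.1% of all probe sets: Nfkbia (adjusted p = 0.00107), the stronger Tlr4 probe set (0.00204), Cd14 (0.0285) and Ly96 (0.047). The calls of Cd14 (above) and Ly96 did not hold under every alternative. For Ly96 the adjusted p (limma) was 0.0783 with BXD32/TyJ kept, 0.081 with tissue scores and 0.0618 with the beta-actin difference as covariates, and 0.151 with the thymocyte- or squamous-rich arrays left out. Tlr4 there ran from 3.63 in BXD29-Tlr4<lps-2J>/J to 5.76 in BXD8/TyJ, and Nfkbia from 8.16 in BXD39/TyJ to 9.89 in BXD27/TyJ. Among inbred strains 8 of 14 passed, against 24.6% of all probe sets. They were Lbp, Nfkbia, both Irak1 probe sets, Myd88, Tlr3, the weaker Tlr4 probe set and Cd14. Of these, only Nfkbia passed under every alternative. With tissue scores as covariates the adjusted p (limma) was 0.118 for Cd14, 0.142 for the weaker Tlr4 probe set and 0.117 for Tlr3. For Myd88 it was 0.0592, and for the Irak1 probe sets 0.0808 and 0.0881. The stronger Tlr4 probe set was not called among inbred strains (adjusted p = 0.101, limma). In the AXB/BXA set 0 of 14 passed, against 3.81% of all probe sets, with 6 of them and 17.5% of all at an unadjusted p below 0.05 in limma. In BXH 0 of 14 passed, against 1.26%, with 1 of them and 12.4% of all at an unadjusted p below 0.05. The panels differ in size, and a call in one and not in another was not tested as a difference.

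Across the 93 strain means, Cd14 moved with Myd88, Lbp and Tlr2. Of the 45 pairs of genes, 16 were called (permutation test with 100000 resamples, two-sided, Benjamini-Hochberg over the 45), 12 positive and 4 negative, and 13 of these also by Spearman's rho. The smallest called r was 0.249 in size, and 37.8% of all pairs among the 11725 genes reached it, against 35.6% of the members' pairs, so the count says nothing particular about the members. The closest pair was Cd14 and Myd88 (r = 0.618, rho = 0.548, adjusted permutation p = 0.000225 for each). It held within the lower and upper array-number blocks (r = 0.665 and 0.551, 44 strains each). Without BXA1/PgnJ and BTBR T<+> tf/J, the strains farthest out in Cd14, it was 0.556. Cd14 and Lbp followed (r = 0.553, rho = 0.597, adjusted permutation p = 0.000225 for each), with 0.548 and 0.562 within the blocks and 0.531 without BXA1/PgnJ and BTBR T<+> tf/J. KK/HlJ and SJL/J, the strains farthest out in Lbp, stayed in for that last value. Tlr2 and Cd14 gave r = 0.464 and rho = 0.421 (adjusted permutation p = 0.0003 and 0.000787), 0.428 and 0.438 within the blocks and 0.413 without BXD2/TyJ and AXB2/PgnJ. Myd88 and Lbp gave r = 0.417 and rho = 0.358, and 0.445 and 0.338 within the blocks, the latter not called (adjusted permutation p = 0.0747). Tlr2 and Lbp gave r = 0.326 (adjusted permutation p = 0.00638), 0.175 in the lower block, where it was not called, and 0.537 in the upper. With the thymocyte- or squamous-rich arrays left out it was 0.232 (adjusted permutation p = 0.101). Tlr2 and Myd88 gave r = 0.352 over all strains, 0.473 in the lower block and 0.106 in the upper, so that relation did not hold within both blocks.

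The called relations of Tlr4 were r = -0.356 with Irak1 (rho = -0.370, adjusted permutation p = 0.00256 and 0.0027), 0.293 with Cd14 and 0.249 with Tlr3 (adjusted permutation p = 0.0125 and 0.0439), the last 2 not called by rho. With Cd14 the r was 0.299 and 0.297 within the blocks and was called in neither (adjusted permutation p = 0.17 and 0.13). With Tlr3 it was 0.429 in the lower block and 0.0887 in the upper. The r with Irak1 was -0.289 without BXD29-Tlr4<lps-2J>/J and BUB/BnJ, and -0.307 and -0.350 within the blocks, called in neither (adjusted permutation p = 0.163 and 0.0698). It was -0.573 with the thymocyte- or squamous-rich arrays left out and -0.404 with the beta-actin difference taken out. Both of these were called (adjusted permutation p = 0.00015 and 0.0009). The r of Tlr4 with its partner Ly96 was 0.217 and was not called. Tlr3 ran against Myd88 (r = -0.394, rho = -0.421), Nfkbia (r = -0.362, rho = -0.359) and Lbp (r = -0.285, rho = -0.288). Without C57L/J and BXD39/TyJ, the strains farthest out in Tlr3, r was -0.365, -0.409 and -0.302. KK/HlJ and SJL/J, farthest out in Lbp, stayed in. Over all arrays the r with the beta-actin difference was 0.439 for Tlr3 and -0.313, -0.179 and -0.156 for Myd88, Nfkbia and Lbp. With that difference taken out of the strain means, an alternative chosen after seeing the data, Tlr3 gave -0.31 with Myd88 and -0.349 with Nfkbia, both called. It gave -0.238 with Lbp and 0.194 with Tlr4, neither called (adjusted permutation p = 0.0576 and 0.135). In the upper block Tlr3 was called with Myd88 and Nfkbia (r = -0.458 and -0.425) and not with Lbp, and in the lower block with none of these 3. Within the lower block alone, where 44 strains remain, 7 of the 45 pairs were called, a count that was not set against all pairs of genes there.

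Tlr2, Cd14 and Tlr7 moved with macrophage genes. The macrophage score (16 genes, all measured, none near background) was tested against each of the 10 genes, and 6 relations were called. All 6 were at least 0.254 in size, as were 29.2% of all 11725 genes. Tlr2 was closest (r = 0.637, rho = 0.647, adjusted permutation p = 3.33e-05 and 5e-05), then Cd14 (r = 0.531, rho = 0.504) and Tlr7 (r = 0.447, rho = 0.413). They gave 0.547 and 0.702, 0.565 and 0.445, and 0.399 and 0.442 within the lower and upper blocks. Without the 2 strains farthest out in each gene they gave 0.599, 0.515 and 0.419. Lbp (r = 0.335), Myd88 (r = 0.254) and Irak1 (r = -0.281) were called with smaller values that did not hold within both blocks. Lbp gave 0.196 in the lower block (adjusted permutation p = 0.338) and 0.483 in the upper. Myd88 gave 0.302 and 0.164 and Irak1 -0.216 and -0.305, called in neither block. With the beta-actin difference taken out, Myd88 gave 0.126 and Irak1 -0.212 (adjusted permutation p = 0.229 and 0.0598), and with the thymocyte- or squamous-rich arrays left out Irak1 gave -0.0558. Tlr4, Tlr3, Ly96 and Nfkbia were not called, with r of 0.106, -0.148, 0.0152 and 0.183. The part of macrophage number in these relations was not tested.

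**Figure D5:**
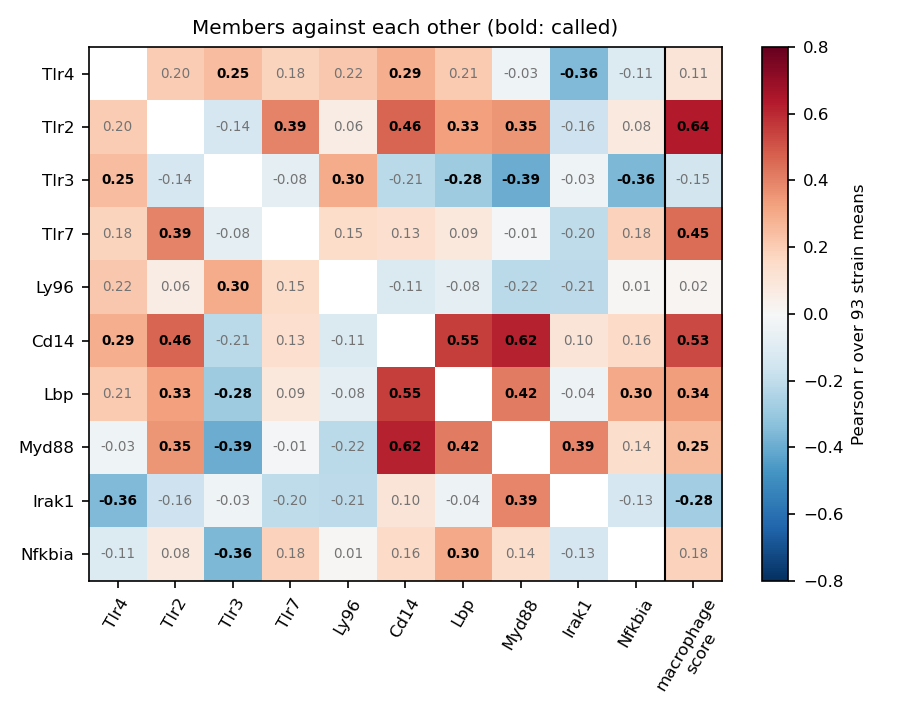
Pearson r over 93 strain means between the 10 genes (strongest probe set each) and, in the last column, with the macrophage score; colour and number give r, and bold marks called relations. Cd14 with Myd88 (0.62) and Tlr2 with the macrophage score (0.64) are the highest.

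The genes whose strain pattern was most like each member, by Pearson r over the 93 strain means among 11724 other genes, differed from member to member. For Tlr4 they were Omd (0.651), Itgbl1, Ntn4, Ogn and Cyp1b1 (0.603), of which Omd and Ogn encode small leucine-rich proteoglycans of the matrix. For Tlr2 they were Fcer1g (0.622), Cxcl16, C1qb, H2-M3 and Vsir (0.611), with Fcer1g and C1qb being macrophage genes. For Tlr7 they were Ms4a6c (0.574), Ms4a6b, Cd53, Cd86 and Stat4 (0.5), genes of leukocytes. For Cd14 they were Nbl1 (0.708), Tmem119, Clec10a, Xbp1 and Ccl9 (0.662). For Nfkbia they were Ddit4 (0.836), Bcl2l1, Agfg2, Tsc22d3 and Taf8 (0.708), where Ddit4 and Tsc22d3 are known as glucocorticoid-induced genes. For Myd88 they were Tnfrsf1a (0.807), Napa, Mroh1, Aup1 and Srm (0.780). For Irak1 they were Mfn2 (0.798), 2310061I04Rik, Zswim7, Atp5e and Hint2 (0.768), with Mfn2, Atp5e and Hint2 encoding mitochondrial proteins. For Lbp they were Gja4 (0.704), Ndrg1, Miox, Amn and Dnase1 (0.668), and without KK/HlJ and SJL/J the r was 0.648 for Gja4 and 0.229 for Miox. For Tlr3 they were Neat1 (0.598), Lman1, Ccser2, Wdr13 and Nfib (0.591), and for Ly96 Fbxo22 (0.511), Snhg6, Dennd4c, Baz2b and Tbk1 (0.475).

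The other genes of the pathway were read from lists of 98 genes by role, of which 75 were measured and 34 were near background. Strain effects were called for 40 of the 75, each read by its strongest probe set, or 53.3%. Of all probe sets 46.5% were called, and with 1 probe set per gene 5759 of the 11725 genes. By role these were 9 of 14 receptors and accessory proteins, 8 of 13 adaptors and kinases, 7 of 10 NF-kB subunits and IKK genes, 6 of 9 negative regulators and 10 of 29 induced targets, 19 of which were near background. The highest intraclass correlations were those of Cxcl9 (0.559), an interferon-induced chemokine, Hp (0.538), the plasma protein haptoglobin, and Trim30a (0.536), an inhibitor of the pathway. Next among receptors were Tlr6 (0.474), which pairs with Tlr2, and Ly86 (0.423), the partner of Cd180. In the other groups Map3k7 (0.451), Tirap (0.340) and Irf5 (0.327), then Bcl3 (0.328), Nfkbib (0.275) and Rela (0.271), then Tnip1 (0.442) and Tollip (0.400), and Selp (0.416), stood highest. Cnpy3, a chaperone of the receptors, came next among the receptors at 0.279.

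None of the 75 was called in BXD29 against the other BXD strains or in C3H/HeJ against the other inbred strains, with 1 and 2 of them at an unadjusted p below 0.05 in limma, or 1.33% and 2.67% against 3.0% and 1.2% of all probe sets. Tlr6 was called in C3H/HeJ against C57BL/6J (higher by 0.58, adjusted p = 0.0403, limma), the only one of the 75, or 1.33%, against 1.25% of all probe sets, and at a mean of 3.45 it was near background. Its lowest strain mean, 2.95, was that of BXD29-Tlr4<lps-2J>/J and its highest, 3.87, that of RIIIS/J. The median difference over the 75 was -0.06 in BXD29 against the other BXD strains and 0.05 in C3H/HeJ against the other inbred strains, where the medians over all probe sets were 0.01 and -0.01.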

How the data were processed

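The values are log2 levels per probe set, deposited by the authors after summary with GCOS and RMA, per the submitters' processing notes (versions and genome build not given in the sources used here). RMA brings all arrays to 1 distribution, so differences are relative, and values near background are compressed. Of 22416 probe sets, 89 controls were dropped. Symbols came from the platform annotation: 17783 probe sets had 1 symbol, 284 several and 4260 none listed. The arrays limit precision by their number: 9 strains had 1 array, 79 had 2, 3 had 3 and 3 had 4, and no array was identical to another. Replicate numbers follow accession order and pair nothing.

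Strain effects were tested with limma 3.58.1 (R 4.3.3, the data.table package, version 1.17.8) across all probe sets, with 93 residual degrees of freedom. Single strains were set against others on strain means, or against named strains in the fit of arrays. Correlations used permutation (scipy 1.17.1, numpy 2.4.6, Python 3.11.15). Benjamini-Hochberg adjusted p under 0.05 counted as called. The scripts were tested on simulated data. Named were all members, the 5 genes most like each, the 3 pathway genes of highest intraclass correlation per role and any pathway gene called. The members and lists were chosen with earlier results of these data known, and the kidney and platelet lists after their values were seen. Alternatives were other probe set filters, array centring, the array-number block, marker scores or the beta-actin difference as covariates, BXD32/TyJ arrays kept and other arrays left out.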

Additional observations from a re-analysis of the deposited data

Results flagged for a closer look

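Among the strains with 4 arrays, 42 combinations of strain and probe set were examined for a single array far from the other 3, and 4 were found, where chance gives about 1 in 20. For the Tlr7 probe set 1419848_x_at, 1 array of AXB19b/PgnJ read 3.19 against 3.26 on the others, and 1 of BXH4/TyJ read 3.30 against 3.17 to 3.19. For the Tlr7 probe set 1449640_at the same BXH4/TyJ array, replicate 3, read 3.92 against 3.22 to 3.34. Lbp read 5.63 on BXH4/TyJ replicate 4 against 6.14 to 6.20. Both Tlr7 probe sets are near background.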

How the results depend on the processing

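Tlr4 stayed lower in BXD29 under each alternative, from -1.46 to -1.18 against the other BXD strains and from -1.65 to -1.40 against the parents (adjusted p up to 0.0223, limma). Against the BXD strains it was called only with the spread between arrays (-1.25, adjusted p = 0.000154, limma). C3H/HeJ minus other inbred strains lay between 0.12 and 0.32. Against C57BL/6J, leaving out 1 array gave -0.03 to 0.48 for Tlr4. The strain effect held in 7 to 12 of the 14 probe sets: 7 above the median level, where only 7 were tested, and 7 when thymocyte- or squamous-rich arrays were omitted. With those arrays omitted the share of all probe sets called went from 46.5% to 35.6%. With probe sets over the median level alone, Lbp differed between panels (adjusted p = 0.0384, limma), and no other member did. Neither this nor the strain effect in 7 probe sets above that level was set against the share of all probe sets called there. With the same arrays omitted, 1 passed within AXB/BXA, 2 within BXD and 4 within inbred strains, while all probe sets called there went from 3.81% to 1.03%, from 15.1% to 5.29% and from 24.6% to 26.7%. With BXD32/TyJ kept, 1627 probe sets were called within BXD. Tissue scores as covariates gave 1 within AXB/BXA and 2 within inbred strains (6.65% and 9.62% of all probe sets), and the macrophage score gave 1 within AXB/BXA (3.82% of all probe sets). The beta-actin difference, chosen after seeing the data as was the omission of KK/HlJ and SJL/J, gave 1, 2 and 5 within AXB/BXA, BXD and inbred strains (4.70%, 14.7% and 16% of all). Within the lower block, 7 pairs of members and 3 relations with the macrophage score were called, counts that were not set against all genes there. Counts over all probe sets ran from 0 to 72 (main 4) for BXD29 against other BXD strains, 6 to 35 (18) against the parents, 3 to 101 (6) for C3H/HeJ against inbred strains and 73 to 1123 (278) against C57BL/6J. They ran from 5759 to 10957 (10375) for strain, 331 to 843 (696) between panels, and 230 to 1485 (851), 1181 to 3452 (3361), 134 to 447 (281) and 2147 to 6907 (5484) within AXB/BXA, BXD, BXH and inbred strains. The causes were not tested. The block could not be fitted within BXD. Single-member differences smaller than their SE were not followed. No paired analysis was possible because the replicate numbers follow accession order. Signal near background limits Tlr3, Tlr7 and Ly96, and among BXD strains also the weaker Tlr4 probe set.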

Other observations

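Platelet genes in BXD29-Tlr4<lps-2J>/J are given as a description. Of 9 measured genes of a list made after the values were seen, 8 were higher than in all 26 other BXD strains, as were 3.57% of all probe sets. Of the 9, 1 was called: P2ry12, the platelet ADP receptor (log2 difference 1.10, adjusted p = 0.00594, limma). Ppbp, a platelet chemokine, read 9.47 and 10.68 against a median of 6.99, and Gp9, a subunit of the von Willebrand factor receptor, read 5.85 and 6.91 against 3.75. The platelet score was 1.15 and 2.26, where other BXD arrays reached 1.48 and arrays of all strains 2.42. The other called probe sets were those of Nxf2 (0.64) and Dnah1 (0.54) and an unnamed one (1.45). In C3H/HeJ against the other inbred strains the 6 called probe sets were those of Hbegf (2.86 and 3.71), a growth factor of the EGF family, Nme7 (3.48), Ppp1r21 (2.23), Klk1b9 (0.98) and Lrrc49 (0.75). The BXD32/TyJ arrays, which were left out of the main comparisons, read 4.18 and 5.26 for Tlr4 and 8.01 and 6.62 for Myd88.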
